A study of Mus musculus with 19 samples.

Results

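The AP-1 transcription factors were followed across 19 RNA sequencing libraries of mouse skin tumours and normal skin. The members were the genes Fos, Fosb, Fosl1, Fosl2, Jun, Junb, Jund and Atf3, found by matching the Ensembl identifiers of the count table to gene symbols, and made up 8 of its 34807 rows. All 8 passed the filter on low counts. The choice used no measured value of these libraries, but it was made with earlier results of the same data known.

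The study asked how the epidermal cell of origin bears on the behaviour of a tumour. The tumours, labelled squamous cell carcinoma, arose in female mice. In these the oncogene BRAFV600E, a constitutively active kinase of the MAPK cascade, was induced at 7 to 20 weeks of age. Recombination by CreERT2 was driven by the Ivl promoter (Ivl tumours, 6 libraries), which is active in differentiating keratinocytes and in some basal cells, or by the Krt5 (K5 tumours, 5 libraries) or Krt14 promoter (K14 tumours, 4 libraries), active in basal keratinocytes. Normal skin came from female mice labelled wild type (4 libraries), so the effects of tumour growth, oncogene and Cre cannot be told apart in comparisons with skin. The methods give a C57BL/6J background for all mice. They name tamoxifen as the inducer for mice with the Ivl promoter and 4-hydroxytamoxifen for those with the Krt5 or Krt14 promoter. The paper also reports a later tumour onset in the Ivl model. Origin, inducer and latency therefore cannot be told apart when Ivl tumours are set against K5 or K14 tumours. The labels do not say that each library came from its own animal, so the p-values measure the spread between these samples.

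AP-1 is a dimer of basic leucine zipper proteins. FOS proteins (Fos, Fosb, Fosl1, Fosl2) cannot pair with each other and bind DNA with a JUN partner (Jun, Junb, Jund), whereas JUN proteins also pair among themselves, and ATF3 can pair with JUN. Several of the genes are immediate-early genes that respond within minutes to growth factors and ERK, the kinase at the end of the MAPK pathway, and in the epidermis AP-1 takes part in proliferation, wound responses and the expression of differentiation genes.

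Per library, between 45715309 and 72609771 counts were assigned to genes. Ivl tumours 1, 2 and 3 and K5 tumour 1 stood apart. For 96.6% of 13954 genes, the means of these 4 libraries and of the other 15, skin included, were no more than 0.1 log2 apart. All 8 AP-1 genes showed the same, with differences between -0.06 and 0.04. The deposited counts had been adjusted between batches that were run at different times. The batch sizes given with the study match this division, but the libraries of each batch are not named, and the part of the adjustment in the pattern was not tested. Values are therefore given over 19 libraries and again within the other 15 (4 of skin and 3 Ivl, 4 K5 and 4 K14 tumours). Levels are counts scaled to library size (CPM), with TMM factors, which set aside genes of extreme change, and errors of fold changes are standard errors. Keratinocyte markers rose in the tumours (summed CPM 6751 to 13000 in skin, 42049 to 107111 in Ivl and 56270 to 91848 in K5/K14 tumours). Of 8 markers 7 rose in Ivl and 8 in K5/K14 tumours, beside 20.4% and 23.2% of all genes. Of these markers 0 were at 0 in all libraries of a group. More cells of a type and more RNA per cell therefore cannot be told apart. Skeletal muscle markers went from 2457 to 7414 CPM in skin to 10.9 to 527 CPM in K5/K14 tumours. There 8 of 8 were lowered, beside 38.9% of all genes. In Ivl tumours they ranged from 10.8 to 4351 CPM, with Ivl tumours 2 (4351) and 3 (1634) the highest. Of the 8 muscle markers 0 passed the test there, where 15.5% of all genes fell. Within the 15 libraries 3 of 8 fell, beside 32.7% of all genes. Skin libraries also stood apart in other ways. Rn7sk, a transcript without a poly(A) tail, was at 2279 to 3275 CPM in skin, at 1283 in Ivl tumour 2 and 934 in Ivl tumour 3, and at or below 13.3 CPM in the other 13 tumours. TMM factors were 1.43 to 1.66 in skin and 0.806 to 1.15 in tumours, and 3242 to 3670 genes were at 0 in skin libraries against 5562 to 10882 in tumours. The part of these signs in the differences of AP-1 genes from skin was not tested.

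The genes lay on GRCm38 at chr12:85473890-85477273 (Fos), chr7:19302696-19310051 (Fosb), chr19:5447547-5455946 (Fosl1), chr5:32135801-32157842 (Fosl2), chr4:95049034-95052222 (Jun), chr8:84974484-84978718 (Junb), chr8:70698949-70700616 (Jund) and chr1:191170296-191218039 (Atf3). Promoter sequences, windows of 300 bases that reach 50 bases past the RefSeq start (GRCm38.p6), were matched for 7 of the 8. Those of Fos, Jun and Junb, which rose in K5 tumours, and of Fosl2, the steadiest member, are shown. Jund and Fosl1 rose there too, but the window of Jund was not among those chosen and Fosl1 had none. Capitals mark matches to TGACG, the core of the cyclic AMP response element, to TATAAA, the TATA box, and to TGACATCA, a site of the Jun promoter to which AP-1 and ATF dimers bind.

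Fos, chr12:85473640-85473939, plus strand: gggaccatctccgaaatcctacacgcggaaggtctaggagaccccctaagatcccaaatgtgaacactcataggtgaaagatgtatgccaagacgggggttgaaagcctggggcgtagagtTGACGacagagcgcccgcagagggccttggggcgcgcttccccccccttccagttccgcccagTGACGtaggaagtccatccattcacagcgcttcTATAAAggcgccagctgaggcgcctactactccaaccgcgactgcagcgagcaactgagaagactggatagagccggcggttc
Jun, chr4:95052173-95052472, minus strand: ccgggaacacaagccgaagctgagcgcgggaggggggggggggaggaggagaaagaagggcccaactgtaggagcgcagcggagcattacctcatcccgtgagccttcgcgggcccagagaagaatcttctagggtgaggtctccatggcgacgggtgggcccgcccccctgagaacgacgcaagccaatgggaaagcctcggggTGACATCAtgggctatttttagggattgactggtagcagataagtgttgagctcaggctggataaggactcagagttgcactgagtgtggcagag
Junb, chr8:84978699-84978998, minus strand: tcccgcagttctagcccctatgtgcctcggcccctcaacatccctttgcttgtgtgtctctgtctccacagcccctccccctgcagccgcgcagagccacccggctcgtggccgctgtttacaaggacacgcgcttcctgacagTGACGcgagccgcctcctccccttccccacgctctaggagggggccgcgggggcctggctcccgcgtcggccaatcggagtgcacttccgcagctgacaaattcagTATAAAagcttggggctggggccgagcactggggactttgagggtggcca
Fosl2, chr5:32136222-32136521, plus strand: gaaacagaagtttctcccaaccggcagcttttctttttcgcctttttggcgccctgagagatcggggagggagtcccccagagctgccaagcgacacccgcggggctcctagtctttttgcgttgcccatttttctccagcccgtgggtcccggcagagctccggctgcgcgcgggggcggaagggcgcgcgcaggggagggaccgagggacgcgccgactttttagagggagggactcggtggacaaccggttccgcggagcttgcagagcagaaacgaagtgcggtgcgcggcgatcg

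In Fos the TGACG motif started 129 and 66 bases before the start and TATAAA 33 bases before it. Junb held TGACG 106 bases before its start and TATAAA at the start itself. Jun held TGACATCA 45 bases before its start. Of the promoters not shown, Fosb held TGACG 60 bases before its start, and Atf3 held the same motif on the other strand, CGTCA, 7 bases before its start. The window of Jund, like that of Fosl2, held no match to any of these motifs. On both strands, TGACG was found in 20.8% of 32851 mouse promoters of this length, TATAAA in 13.6% and TGACATCA in 3.62%. The full AP-1 site TGANTCA, where N is any base (7.81% of all promoters), the full cyclic AMP response element TGACGTCA (1.79%), which contains TGACG, and the CArG box bound by SRF (1.63%) matched in none of the 7 windows. TGACATCA was added after the sequences had been seen. A match describes letters in a window and does not show that a factor binds there. Sites further upstream lay outside the windows and were not searched, so the absence of a match holds for the windows only.

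**Figure D1:**
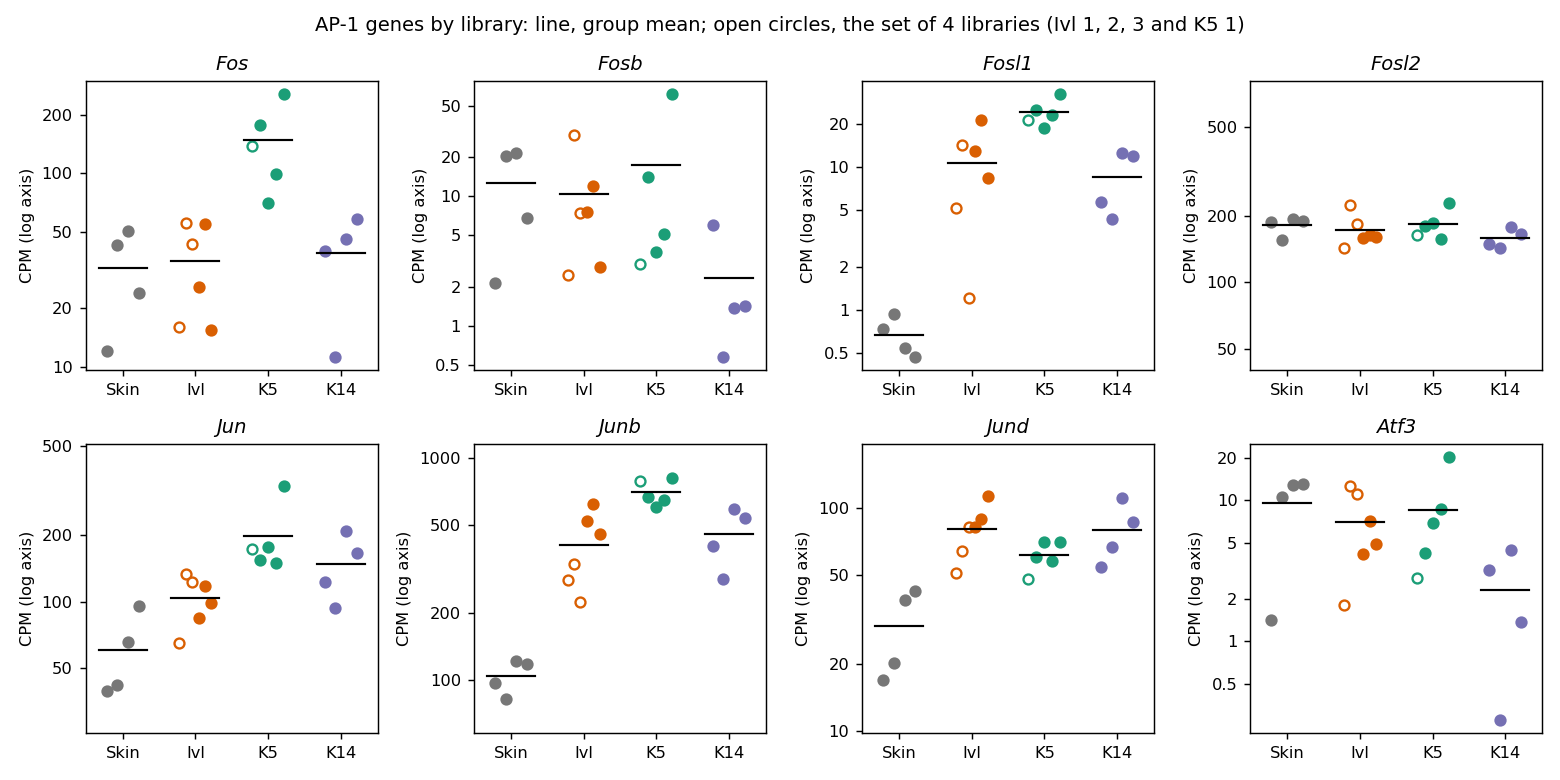
Level of each AP-1 gene in CPM (log axis) in every library, by group. Lines are group means and open circles are Ivl tumours 1, 2 and 3 and K5 tumour 1. Fosl1, Junb and Jund are higher in all 15 tumours than in all 4 skin libraries, Fos is higher in all 5 K5 tumours than in any other library, and Fosl2 lies between 143 and 227 CPM throughout.

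To ask which AP-1 genes differed between tumours and skin, Ivl and K5/K14 tumours were each compared with the same 4 skin libraries. In Ivl tumours 3 of the 8 genes rose and 0 fell, namely Fosl1, Junb and Jund, where 20.4% of all 32031 genes tested rose (35.9% changed in either direction). In K5/K14 tumours 5 of 8 rose and 0 fell, namely the same genes with Jun and Fos, where 23.2% of all genes rose (62.2% changed in either direction). Values of 3 members did not overlap between tumours and skin in each comparison, all higher in tumours, beside 13.2% (Ivl) and 16.7% (K5/K14) of all genes. The median log2 fold change of the 8 members was 0.44 in Ivl and 1.39 in K5/K14 tumours, and that of all genes was -0.46 and -0.60. With DESeq2 size factors, a change of scale over the same genes, the median of all genes was -0.59 and -0.71. With protein-coding genes alone it was -0.20 and -0.24, but there the genes behind the median differ too. Those values therefore do not measure a shift in scale, and a rise relative to the median depends on the genes it is taken over. Relative to the median of all genes, Fosl1, Junb and Jund rose in Ivl tumours by 4.45, 2.41 and 1.90 log2 units and in K5/K14 tumours by 5.29, 3.1 and 1.84, and Fosl2 stood 0.38 and 0.52 above it. Within the 15 libraries 3 and 4 members rose, beside 22.2% and 23.9% of all genes, and Fos was the one lost.

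Fosl1 encodes FRA-1, a FOS protein without a transactivation domain of its own that accumulates under sustained ERK signalling. It was barely detected in skin, at 0.738, 0.933, 0.543 and 0.468 CPM. In Ivl tumours it ranged from 1.21 to 21.5 CPM with a median of 10.8. The 5 K5 tumours held 21.4, 25.2, 18.7, 23.3 and 32.5 CPM and the 4 K14 tumours 5.67, 4.31, 12.5 and 11.9 CPM. Every tumour lay above every skin library, and Ivl tumour 3 lay nearest to skin. The log2 fold change against skin was 3.99 ± 0.71 (edgeR, adjusted p 0.00023) in Ivl tumours and 4.68 ± 0.72 (adjusted p 3.6e-05) in K5/K14 tumours, and 4.42 and 4.64 within the 15 libraries (adjusted p 5.1e-05 and 1.2e-05). Fosl1 shares 1163 exon bases with Ccdc85b on the opposite strand. Ccdc85b rose less, by a log2 fold change of 0.84 in Ivl (edgeR adjusted p 0.00054) and 1.01 in K5/K14 tumours (adjusted p 3.5e-05). The kit keeps strand, but the strand setting of the counting is not stated, so reads of the partners cannot be told apart.

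Junb encodes a JUN protein that is abundant in epidermis and can restrain c-JUN. Skin held 97.2, 82.7, 122 and 118 CPM, and Ivl tumours ranged from 226 to 620 with a median of 394. K5 tumours held 788, 668, 604, 646 and 812 CPM and K14 tumours 400, 285, 590 and 539 CPM. The lowest tumour, Ivl 3, lay above the highest skin library. Junb rose by a log2 fold change of 1.95 ± 0.30 (edgeR, adjusted p 5.3e-05) in Ivl tumours and 2.50 ± 0.30 (adjusted p 2.9e-06) in K5/K14 tumours, and by 2.34 and 2.44 within the 15 libraries (adjusted p 4.5e-06 and 5.9e-07). In Ivl tumours its mean was 406 CPM ± 151 (SD, n = 6), and the 3 tumours outside the set of 4 were the 3 highest, at 531 ± 84. Junb shares 173 exon bases with Prdx2 on the opposite strand, which rose by 1.12 and 1.41.

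Jund encodes the JUN protein usually found in resting cells. Skin held 16.8, 20.2, 38.7 and 42.4 CPM, and Ivl tumours ranged from 50.9 to 113 with a median of 81.9. K5 tumours held 48.1, 60, 70.4, 57.9 and 70.2 CPM and K14 tumours 54.5, 67.1, 111 and 86.6 CPM. The groups did not overlap, although the lowest tumour, K5 1, was close to the highest skin library. The log2 fold change was 1.44 ± 0.28 (edgeR, adjusted p 0.00052) in Ivl tumours and 1.24 ± 0.27 (adjusted p 0.00072) in K5/K14 tumours, and 1.69 and 1.29 within the 15 libraries (adjusted p 0.0003 and 0.00048). Jund overlaps 877 exon bases of the antisense gene Gm11175, which has no row in the table.

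Jun encodes c-JUN, a main partner of the FOS proteins. Skin held 39.7, 42.1, 65.5 and 95.2 CPM, and Ivl tumours ranged from 65.2 to 133 with a median of 108. K5 tumours held 173, 154, 176, 149 and 331 CPM and K14 tumours 123, 93.5, 208 and 166 CPM. All K5 tumours lay above skin, whereas 1 K14 tumour and 2 Ivl tumours lay below the highest skin library. Jun rose in K5/K14 tumours by a log2 fold change of 1.53 ± 0.30 (edgeR, adjusted p 0.00031). In Ivl tumours the fold change of 0.77 ± 0.30 did not pass (adjusted p 0.053, 95% interval 0.14 to 1.4), nor did it within the 15 libraries (0.72, adjusted p 0.1). Leaving out Ivl tumour 1, K14 tumour 2, K5 tumour 5 or normal skin 4 brought it under 0.05.

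Fos encodes c-FOS, the best known immediate-early gene. It was at 12.1, 42.7, 50.6 and 24.0 CPM in skin, between 15.5 and 55.3 CPM in Ivl tumours (median 34.5) and at 39.6, 11.2, 45.5 and 58.1 CPM in K14 tumours. K5 tumours held 139, 177, 70.3, 99.2 and 257 CPM. All 5 K5 tumours lay above all 14 other libraries, and the other 3 groups overlapped each other. Against skin the log2 fold change was 0.11 ± 0.65 (edgeR, adjusted p 0.89, 95% interval -1.24 to 1.47) in Ivl tumours, and other scalings or filters turned its sign. In K5/K14 tumours Fos rose by 1.62 ± 0.65 (adjusted p 0.039). That call was lost within the 15 libraries (1.55, adjusted p 0.073) and when K5 tumour 1, 2 or 5 or normal skin 1, 2 or 4 was left out (1.3 to 1.78).

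Since Fos values of K5 and K14 tumours did not overlap, each was also compared with skin alone, a choice made after these values were seen. Fos rose in K5 tumours by a log2 fold change of 2.20 ± 0.56 (edgeR, adjusted p 0.0039), beside 22.2% of all genes that rose, and by 2.22 within the 15 libraries (adjusted p 0.008), where 61.2% of all genes changed. In K14 tumours its fold change was 0.26 ± 0.55 (adjusted p 0.71). Fosl1, Jun, Junb and Jund rose in both, with log2 fold changes of 5.17, 1.70, 2.74 and 1.06 in K5 and 3.68, 1.28, 2.11 and 1.44 in K14 tumours, where 20.6% of all genes rose. Atf3 fell in K14 tumours by 2.04 ± 0.81 (adjusted p 0.047), where 25.9% of all genes fell, and by 2.04 within the 15 libraries (adjusted p 0.04), where 54.5% of all genes changed.

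Atf3, Fosb and Fosl2 passed the test in neither main comparison with skin. Atf3, a stress-induced factor, held 1.41, 10.6, 12.9 and 13.1 CPM in skin. It ranged from 1.8 to 12.7 in Ivl and from 2.8 to 20.3 in K5 tumours, and the 4 K14 tumours held 3.18, 0.277, 4.43 and 1.36 CPM. K14 tumours thus lay below 3 of the 4 skin libraries, while normal skin 1 lay among them. The log2 fold change was -0.45 ± 0.79 (edgeR, adjusted p 0.65) in Ivl tumours and -0.72 ± 0.72 (adjusted p 0.39) in K5/K14 tumours. Fosb, an immediate-early gene like Fos, ranged from 2.16 to 21.6 CPM in skin, 2.47 to 30 in Ivl, 3.03 to 61.6 in K5 and 0.576 to 6.01 in K14 tumours. Its fold changes of -0.30 ± 1.08 (adjusted p 0.83) and -0.25 ± 1.0 (adjusted p 0.84) had intervals of -2.58 to 1.98 and -2.36 to 1.86, so differences of several fold were not detectable in either direction.

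Fosl2 encodes FRA-2, which like FRA-1 lacks a transactivation domain. It was the steadiest member, with 181 CPM ± 17.3 (SD, n = 4) in skin, 172 ± 27.8 (n = 6) in Ivl, 182 ± 27.2 (n = 5) in K5 and 159 ± 15.5 (n = 4) in K14 tumours. Its log2 fold change against skin was -0.08 ± 0.14 (edgeR adjusted p 0.64, 95% interval -0.36 to 0.21) in Ivl tumours and -0.08 ± 0.13 (adjusted p 0.6, interval -0.34 to 0.19) in K5/K14 tumours. On the scale of protein-coding genes alone it fell in K5/K14 tumours by 0.29 (adjusted p 0.047).

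**Figure D2:**
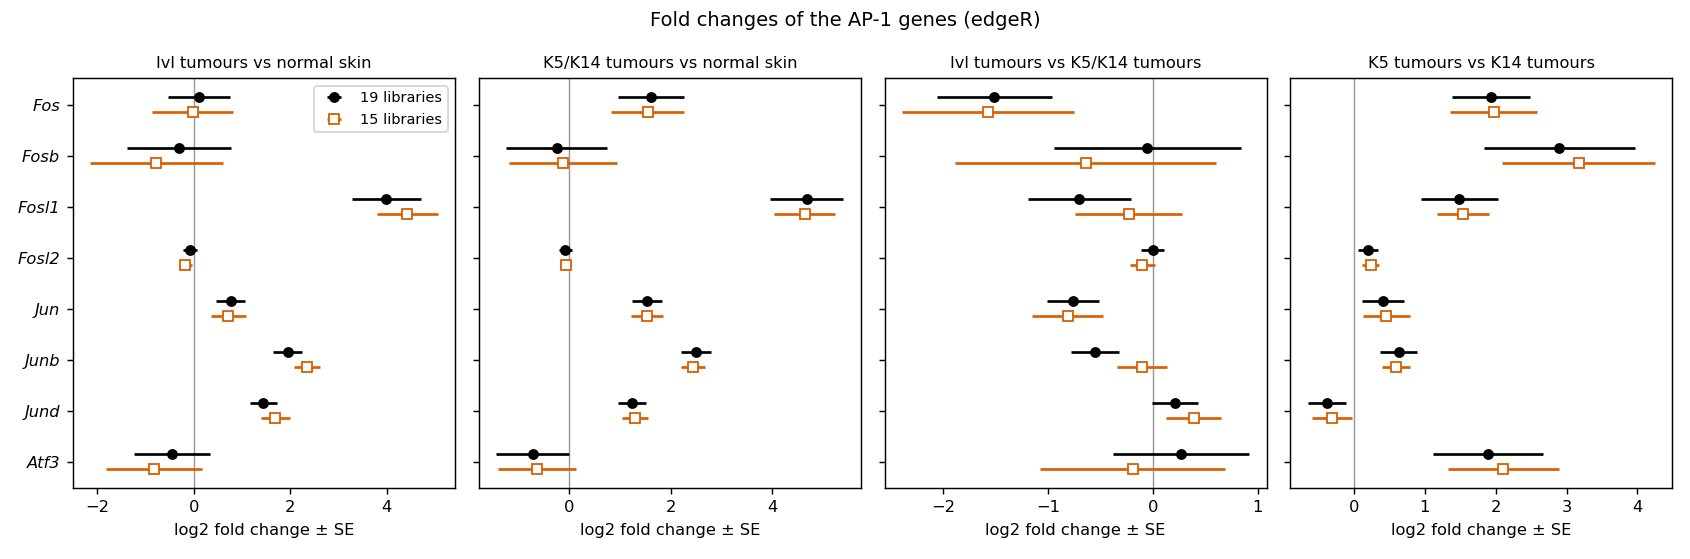
Log2 fold change ± SE of each AP-1 gene in 4 comparisons, over 19 libraries (black circles) and within the 15 libraries (orange squares). A value above 0 is higher in the first group named, and each panel has its own scale. Fosl1, Junb and Jund lie above 0 in both comparisons with skin, and Fos lies at 0.11 in Ivl and at 1.62 in K5/K14 tumours.

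To compare tumours by origin, Ivl tumours were set against K5/K14 tumours. Of the 8 AP-1 genes 0 differed by edgeR, where 2.36% of all genes did, and values of all 8 overlapped, whereas those of 0.656% of all genes did not. At an unadjusted p under 0.05 there were 3, beside 6754 of all 32031 genes, each lower in Ivl tumours. These were Fos (log2 fold change -1.51 ± 0.55, edgeR adjusted p 0.13), Jun (-0.76 ± 0.25, adjusted p 0.096) and Junb (-0.55 ± 0.23, adjusted p 0.18). DESeq2 called 2, Fos (-1.52, adjusted p 0.039) and Jun (-0.77, adjusted p 0.04), beside 2133 of all 32031 genes. Within the 15 libraries the fold changes of Fos and Jun were -1.57 and -0.81 and that of Junb was -0.10, and 0 members passed edgeR, where 0.41% of all genes did, with 1 member and 3611 of 31971 genes at an unadjusted p under 0.05. For Fosl1 the fold change was -0.70 ± 0.49 (95% interval -1.72 to 0.32) and for Jund 0.21 ± 0.22 (-0.25 to 0.66).

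In Fos, Ivl tumours lay apart from K5 tumours and among K14 tumours. Added after the values were seen, the comparison of Ivl with K5 tumours gave a log2 fold change of -2.08 ± 0.48 (edgeR, adjusted p 0.038) for Fos, where 0.702% of all genes were lower. All 6 Ivl tumours lay below all 5 K5 tumours in Fos and in Jun (-0.93 ± 0.27, adjusted p 0.079), where values of 3.31% of all genes did not overlap in either direction. Within the 15 libraries the fold change of Fos was -2.24 and did not pass (adjusted p 0.21), and 0.347% of all genes changed. Against K14 tumours it was -0.14 ± 0.50 (adjusted p 0.98), where 0% of all genes changed. The other 7 members passed in neither of these comparisons by edgeR, the only tool run on them.

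To see whether both basal origins could be merged, K5 tumours were set against K14 tumours. By edgeR 0 of the 8 members and 0% of all genes differed (0 members and 0.0532% within the 15 libraries), while 5 members and 1945 genes had an unadjusted p under 0.05. All 5 were higher in K5 tumours. They were Fosb (log2 fold change 2.90 ± 1.07, edgeR adjusted p 0.72), Fos (1.94 ± 0.55, adjusted p 0.61), Atf3 (1.89 ± 0.78, adjusted p 0.77), Fosl1 (1.49 ± 0.54, adjusted p 0.72) and Junb (0.63 ± 0.26, adjusted p 0.77). Fos, Fosl1 and Junb were higher in every K5 tumour than in every K14 tumour, beside 2.04% of all genes, and the same 3 were so within the 15 libraries, beside 3.44%. Jund had a fold change of -0.38 ± 0.27. The median over the members was 1.06 and over all genes 0.00. DESeq2 called 1 member, Fos (adjusted p 0.027), beside 174 of all 32031 genes. Hair follicle markers summed to 6.5 to 7.72 CPM in K5 and 8.14 to 985 CPM in K14 tumours, with 1 of 6 markers at 0 in all K5 tumours and K14 tumour 1 the highest, and their part in these differences was not tested.

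Compared per kilobase of exon, Junb was the most abundant AP-1 transcript in every group and did not overlap the next member in any of them. Its means were 45.7 ± 8.05 CPM per kb (SD, n = 4) in skin, 176 ± 65.5 (n = 6) in Ivl, 306 ± 39.7 (n = 5) in K5 and 197 ± 60 (n = 4) in K14 tumours. In skin Jun (19), Fosl2 (18.7), Jund (17.7) and Fos (13.8 CPM per kb) followed, each overlapping the next, and Fosl1 came last at 0.33. In Ivl tumours Jund (48.1) and Jun (32.5) came next and overlapped, followed by Fosl2 (17.7) and Fos (14.9). In K5 tumours Fos (63.1) and Jun (61.7) stood side by side in the next ranks and overlapped, and Jun did not overlap Jund (36.8 CPM per kb). In K14 tumours the order was Junb, Jund (47.9), Jun (46.3), Fos (16.4) and Fosl2 (16.4). Fosl1 rose from the last rank in skin to the sixth in each tumour group, while Atf3 and Fosb held the last ranks there. The length of Jund rests on an annotation that starts downstream of the RefSeq start. Lengths also kept bases shared with genes on the opposite strand, 1163 of 2033 in Fosl1 and 877 of 1668 in Jund. Whether reads over these bases were counted is not stated, so the levels per kilobase and the ranks of Fosl1 and Jund are uncertain.

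Ratios within a library do not depend on the scaling between libraries. The log2 ratio of Fosl1 to Fos counts was -5.44 ± 1.04 (SD, n = 4) in skin, -1.99 ± 1.6 (n = 6) in Ivl, -2.50 ± 0.47 (n = 5) in K5 and -2.08 ± 0.61 (n = 4) in K14 tumours. Ivl tumour 3, at -5.16, lay within the range of skin (-6.54 to -4.04), and the other 14 tumours lay above it. Without the set of 4, the 3 remaining Ivl tumours were at -1.07 ± 0.24, above all K5 and K14 tumours (-2.98 to -1.38). The margin was narrow, with Ivl tumour 5 at -1.34 and K14 tumour 2 at -1.38. All 6 Ivl tumours together (-5.16 to -0.88) overlapped the K5 and K14 tumours. The ratio of Fosl1 to Fosl2 went from -8.13 ± 0.57 in skin to -4.46 ± 1.5 in Ivl, -2.93 ± 0.22 in K5 and -4.35 ± 0.64 in K14 tumours, and that of Junb to Jun from 0.87 ± 0.41 to 1.93 ± 0.67, 1.90 ± 0.37 and 1.63 ± 0.09. In Ivl tumour 3 skeletal muscle (1634 CPM) and fibroblast (10716 CPM) markers were also high, the latter highest among the Ivl tumours, and their part in its ratio was not tested.

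**Figure D3:**
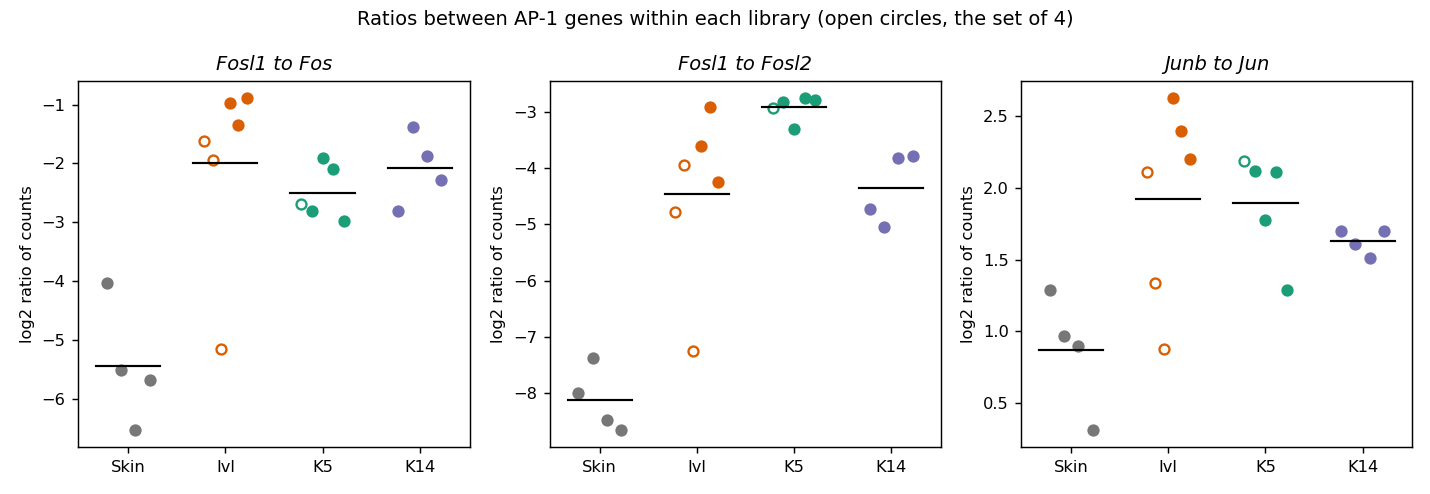
Log2 ratio of counts between pairs of AP-1 genes in each library, with group means as lines. Open circles are Ivl tumours 1, 2 and 3 and K5 tumour 1. Ivl tumour 3 is the open circle at -5.16 in the first panel, within the range of skin.

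Over the 15 tumours, some pairs of AP-1 genes varied together and Jund varied apart from the other members. As a description over libraries that share groups and a batch adjustment, the Pearson correlation of log2 CPM was 0.90 between Fosl1 and Junb, 0.82 between Fos and Jun and 0.81 between Fosb and Atf3. Jund had correlations between -0.27 and 0.14 with the others. The median over the 28 pairs was 0.43, with 6 pairs over 0.7. Pairs without Jund went down to 0.25 (Fosl2 with Junb). Over the 11 tumours outside the set of 4 the median was 0.71, with 15 pairs over 0.7, and Fosl1 and Junb reached 0.96. No baseline from pairs of other genes is given.

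**Figure D4:**
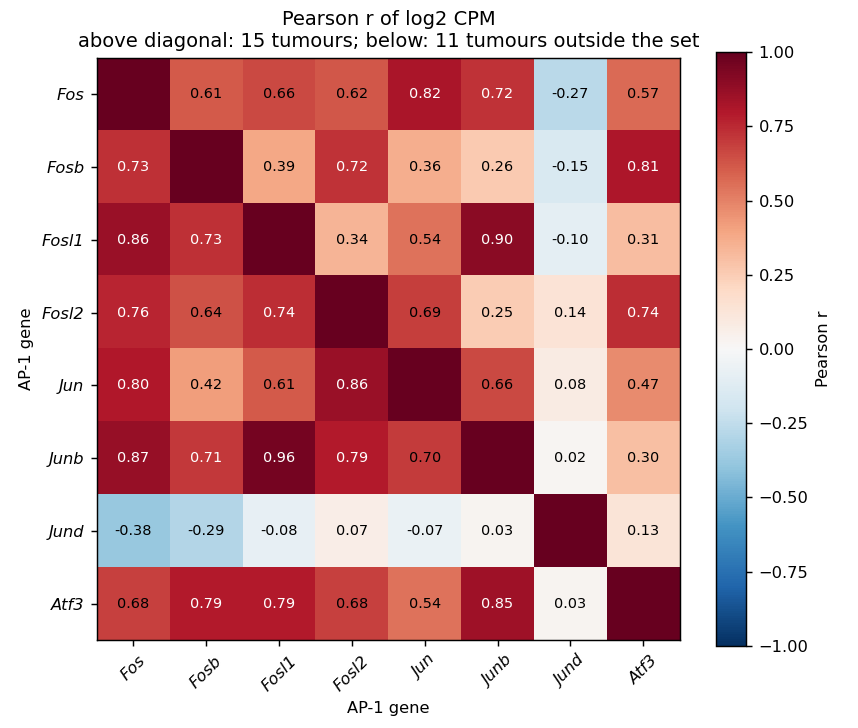
Pearson r of log2 CPM between AP-1 genes, over 15 tumours above the diagonal and over the 11 tumours outside the set of 4 below it. The row and column of Jund are pale, with r between -0.27 and 0.14 over 15 tumours, whereas Fosl1 with Junb reaches 0.90.

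The protein-coding genes whose log2 CPM was most like that of each member over the 15 tumours, of 13465 compared, were named by rule. For Fos these were Ccn1 (r = 0.96), a matricellular immediate-early gene, and Cemip2 (0.95). For Junb they were Ier2 (0.98) and Ier3 (0.96), both immediate-early response genes. Cdkn1a (0.92), the cell cycle inhibitor p21, and Sdc1 (0.91), the heparan sulphate proteoglycan syndecan-1, were closest to Fosl1. Apold1 (0.90) and Nes (0.89), the intermediate filament nestin, were closest to Jun. Rab27b (0.91) and the epidermal differentiation factor Klf4 (0.87) were closest to Jund. For Fosl2 they were Dmtf1 (0.87) and Dusp1 (0.85), a MAPK phosphatase, for Fosb Btg2 (0.84) and Tsc22d1 (0.82), and for Atf3 Rgs1 (0.87) and Tnf (0.85), both at most at 6.24 CPM. Over the 11 tumours outside the set of 4 these correlations lay between 0.82 and 0.96, but most ranks changed. Dmtf1 ranked 1 and Ccn1 2, while Dusp1 ranked 34, Tnf 55, Rab27b 64 and Sdc1 261, so which genes are closest depended on the libraries compared.

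Genes around AP-1 in its pathway were then counted, in lists drawn up with earlier results of these data known. Counts within the 15 libraries are given after those over 19. Of all genes tested over 19 libraries, 20.4% rose and 15.5% fell in Ivl tumours, and 23.2% rose and 38.9% fell in K5/K14 tumours. Within the 15 libraries 22.2% rose and 32.7% fell in Ivl tumours, and 23.9% rose and 42.3% fell in K5/K14 tumours. These shares stand beside each list count against skin that follows. Of 17 upstream kinases, SRF and ternary complex factors, 10 rose and 2 fell in Ivl and 11 rose and 1 fell in K5/K14 tumours against skin. The median log2 fold change was 0.64 and 0.61, and within the 15 libraries 11 rose and 2 fell in each comparison. The MAP kinase kinases Map2k4 (1.17 and 1.48) and Map2k2 (0.93 and 1.1) rose, and the ternary complex factor Elk4 fell (-1.0 and -1.46). The ribosomal S6 kinase gene Rps6ka2 fell in Ivl tumours (-0.76, edgeR adjusted p 0.045), and in both within the 15 libraries. Of 11 ERK output genes 3 and 5 rose and 0 fell (median 0.15 and 0.40), among them the ERK phosphatase Dusp5 (2.08 and 2.73) and Phlda1 (2.47 and 3.0). Within the 15 libraries 3 and 5 rose, and in Ivl tumours 2 fell, the ERK pathway inhibitors Spry4 (-1.66, edgeR adjusted p 0.037) and Spred2 (-0.49, adjusted p 0.0088), named after their values were seen.

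Of 22 immediate-early genes 9 rose and 0 fell in Ivl tumours and 12 rose and 2 fell in K5/K14 tumours (median 0.49 and 0.99). Ier5 rose in both (1.6 and 1.97), Gadd45b was named in Ivl tumours (1.59) and Ier2 in K5/K14 tumours (1.70), while the nuclear factors Egr2 (-1.49) and Nr4a3 (-1.31) fell in the latter. Over the 15 libraries 9 rose and 1 fell in Ivl tumours and 12 rose and 2 fell in K5/K14 tumours. The gene that then fell in Ivl tumours was Egr2 (-2.18, edgeR adjusted p 0.0049), whose value over 19 libraries was -1.27 (adjusted p 0.085). Of 18 other basic leucine zipper genes 7 rose and 1 fell in Ivl and 9 rose and 3 fell in K5/K14 tumours (median 0.23 and 0.38). Atf4, the effector of the integrated stress response, rose in both (1.44 and 1.63). Nfe2l2, which encodes the oxidative stress factor NRF2, was named in Ivl tumours (1.95) and Cebpb in K5/K14 tumours (1.46). Batf2 fell in Ivl tumours (-1.61), and Atf7 (-0.59) and Atf2 (-0.34), which can pair with JUN, fell in K5/K14 tumours. In the 15 libraries 7 rose and 4 fell in Ivl and 9 rose and 4 fell in K5/K14 tumours, and Batf2, Atf7 and Atf2 were among those that fell in both.

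Of 17 genes known as AP-1 targets 16 rose in Ivl and 17 in K5/K14 tumours, and 0 fell (median 1.91 and 2.48). Hbegf, a ligand of the EGF receptor, went from 14.8 CPM in skin to 135 in Ivl and 240 in K5/K14 tumours (3.19 ± 0.49 SE and 4.02 ± 0.51), and Ezr, the membrane linker ezrin, rose by 1.55 and 1.5. All 12 epidermal genes with AP-1 sites rose in both (median 4.15 and 3.46), among them S100a8 (6.52 and 7.06), Tgm1 (2.55, named in Ivl tumours) and the gene Ivl (6.42, named in K5/K14 tumours). The keratinocyte markers, 2 of which stand in this list, rose beside these genes, as did 2 of 5 neutrophil markers in each comparison. The part of either cell type was not tested. Within the 15 libraries 15 and 17 of the targets and 12 and 12 of the epidermal genes rose. Between K5 and K14 tumours 0 genes of any list differed by edgeR. Between Ivl and K5/K14 tumours only the gene Ivl did, at 323 against 1048 CPM (-1.70 ± 0.44, adjusted p 0.047), where 2.36% of all genes differed. Within the 15 libraries it did not (-1.0, adjusted p 0.42), where 0.41% of all genes differed. There the one gene that passed was Sprr3, a cornified envelope gene named after its values were seen, which was higher in Ivl tumours (4.17, adjusted p 0.0052) and over 19 libraries was at 3.7 (adjusted p 0.056).

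**Figure D5:**
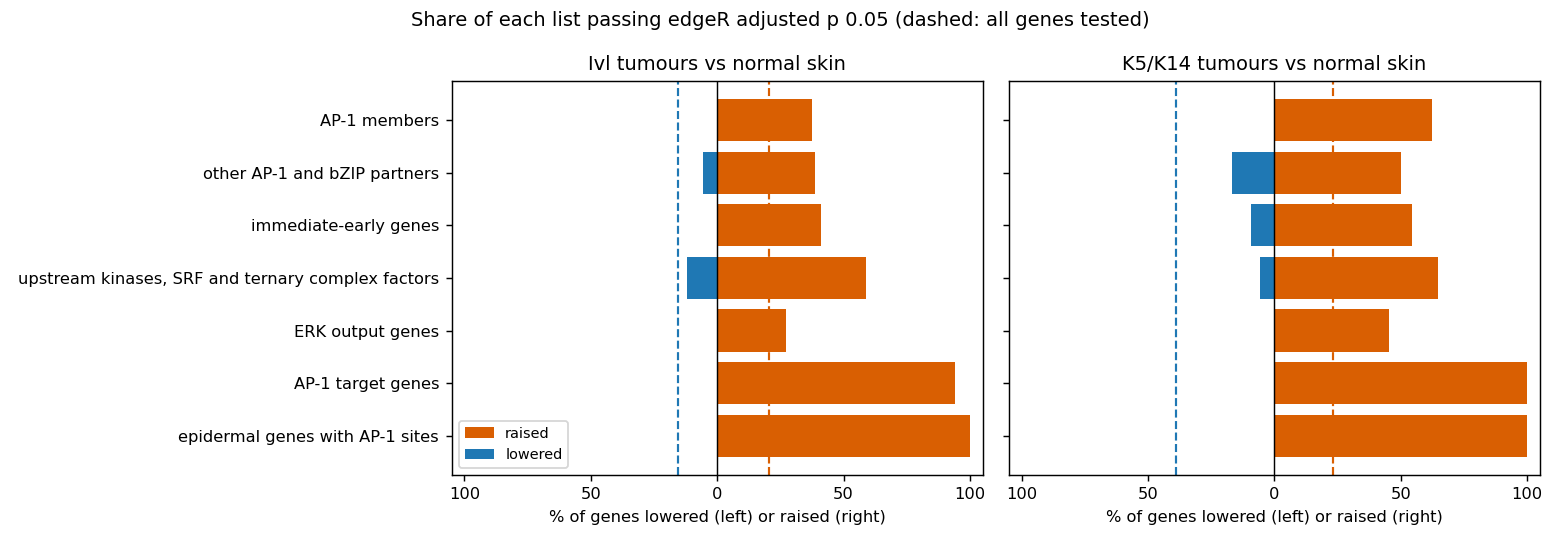
Percentage of the genes of each list that rose (right, orange) or fell (left, blue) against normal skin by edgeR at an adjusted p of 0.05, for Ivl tumours (left panel) and K5/K14 tumours (right panel). Dashed lines give the percentage of all genes tested that rose (20.4% and 23.2%) or fell (15.5% and 38.9%), and both comparisons share the skin libraries.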

How the data were processed

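Poly(A) RNA libraries from 15 tumours and 4 samples of normal skin had been prepared by the authors with a strand-specific kit and sequenced in pairs. Per the labels and the paper's methods, the authors checked reads with FastQC 0.11.8, trimmed them with Trim Galore, aligned them to GRCm38 with HISAT2 2.1.0, assigned them to genes with featureCounts (Subread 1.6.3) and adjusted the table for a batch with ComBat-seq. The deposited values are therefore estimated counts. They were whole numbers, and rounding left them unchanged. The design had assumed plain counts, whose test was kept. Whether strand was used and whether pairs or single reads were counted is not stated. Totals were 45715309 to 72609771 per library.

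The 32031 of 34807 genes that reached 5 counts in any 1 library were tested with edgeR 4.0.16 in R 4.3.3 (TMM, quasi-likelihood F test, robust, two-sided), with Benjamini-Hochberg adjustment over all of them and all 19 libraries in each fit. An adjusted p under 0.05 counted as a change. K5 and K14 tumours were compared, then joined as K5/K14 tumours (n = 9), following the study. SEs came from the fold change and F, and intervals are 95%. Neither covers error from the batch adjustment. Log2 CPM used a prior count of 2. Exon lengths and positions came from GENCODE M21 (34672 of 34807 identifiers matched), promoters from RefSeq. The test was checked on simulated counts in which few genes changed and all genes had the same spread. Those counts held no batch adjustment and no skin-like shift in composition, so the check does not cover these features of the data. Alternatives were DESeq2 1.42.0, its size factors, other filters, protein-coding genes only, the 15 libraries, the set of 4 as covariate, only the groups compared, a replicate block and leaving out each library. None of the 37 pairs of libraries within a group agreed within sampling noise.

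Members, 6 pathway lists and markers of 11 cell types were chosen with earlier results of these data known. Named were all 8 members, from each pathway list the 2 genes per direction and comparison with the smallest adjusted p among those changed, and for each member the 2 protein-coding genes with the highest Pearson r over the tumours among genes with a mean of at least 1 CPM.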

Additional observations from a re-analysis of the deposited data

Results flagged for a closer look

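In 8 of 40 groups of 4 to 9 libraries, each taken for 1 AP-1 gene, the highest or the lowest library lay far from the others by Dixon's criterion. Chance flags about 1 in 20 groups when values are normally distributed. The criterion was applied to CPM without logs, which can be skewed, and the merged K5/K14 group repeats libraries of the K5 group. The number flagged therefore cannot be set against that rate. Fosb gave 4 of these. Ivl tumour 2 held 30 CPM, where the next Ivl tumour held 12.1, K14 tumour 1 held 6.01 CPM, where the next held 1.42, and K5 tumour 5 held 61.6 CPM, where the next held 14.1, among both the K5 and the K5/K14 tumours. K5 tumour 5 was also far from the others for Jun, at 331 CPM, where the next K5 tumour held 176 and the next K5/K14 tumour 208, and for Atf3 among the K5/K14 tumours, at 20.3 CPM, where the next held 8.65. It also held the most Fos (257 CPM), Fosl1 (32.5), Fosl2 (227) and Junb (812 CPM) of the 15 tumours. Without K5 tumour 5 the log2 fold change of Jun in K5/K14 tumours against skin was 1.36 and that of Fos 1.3, and Fos no longer passed. In normal skin 2 Fosl2 was low, at 156 CPM, where the next lowest skin library held 188.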

How the results depend on the processing

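Fosl1, Junb and Jund kept their direction and stayed past the threshold in both comparisons with skin under every alternative run. Jun in K5/K14 tumours did so too. Of the members called, DESeq2 gave 2 in Ivl against K5/K14 tumours and 1 in K5 against K14 tumours, and K5 tumours alone gave 1 in the former. The call of Fos in K5/K14 tumours was also lost with protein-coding genes only (1.42, edgeR adjusted p 0.06), the set of 4 as covariate (1.57, adjusted p 0.051) and only the groups compared (1.62, adjusted p 0.059). The counts of all genes called moved more. DESeq2 gave 2133 (Ivl against K5/K14 tumours) and 174 (K5 against K14 tumours), protein-coding genes only 11512 (K5/K14 tumours against skin) and 498, the 15 libraries 17566 (Ivl tumours against skin), 131 and 17, the set of 4 as covariate 449, only the groups compared 2 (K5 against K14 tumours), K5 tumours alone 470 and K14 tumours alone 0, the main values being 11515, 19916, 756 and 0. Among genes changed in Ivl tumours against skin, the share raised was 56.8% (TMM), 45.6% (DESeq2 size factors) and 40.4% (15 libraries). Some fold changes turned their sign. For Fos in Ivl tumours against skin the turned values were -0.01 (DESeq2 and its size factors), -0.04 (filterByExpr), -0.08 (protein-coding genes), -0.02 (15 libraries) and -0.07 (covariate). In Ivl against K5/K14 tumours they were 0.01 (protein-coding genes), 0.00 (groups compared) and 0.11 (K14 alone) for Fosl2, -0.19 (15 libraries) and -0.29 (K5 alone) for Atf3, 2.15 for Fosb and 0.31 for Fosl1 (K14 alone), and in K5/K14 tumours against skin 0.45 for Fosb and 0.01 for Fosl2 (K5 alone). Leaving out 1 library at a time gave 9165 to 14757, 17638 to 20469, 127 (without K5 tumour 1) to 1328 (without K14 tumour 1) and 0 to 0 genes in the 4 comparisons and 3 to 4, 4 to 5, 0 to 0 and 0 to 0 members. It moved Fos in Ivl tumours against skin from -0.16 to 0.40, Fosb from -0.98 to 0.07 there, from -1.53 to 0.10 in K5/K14 tumours against skin and from -0.73 to 1.24 in Ivl against K5/K14 tumours, and Fosl2 from -0.09 to 0.06 in the last. The median r of the members moved to 0.71 over 11 tumours. Replicate numbers did not pair the samples (25 same-numbered pairs, r -0.48 to 0.39, 9 over 0.1). With them as a replicate block, 3, 4, 0 and 0 members and 7700, 18286, 46 and 0 genes were called, Fos in K5/K14 tumours against skin had a fold change of 1.5 (adjusted p 0.061), and in Ivl against K5/K14 tumours Fosb was at 0.57 and Fosl2 at 0.01. Depth limits precision at the lowest levels, those of Fosl1 in skin (at most 0.933 CPM) and of Fosb (0.576) and Atf3 (0.277 CPM) in single K14 tumours. For Fosb the libraries of 1 group differed by up to 20.3-fold (K5 tumours).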

Other observations

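Of 5 neutrophil markers 2 rose against skin in Ivl and 2 in K5/K14 tumours, Cxcr2 and Ly6g, and 0 fell, beside 20.4% and 23.2% of all genes that rose. Ly6g was low, at 0.0522 and 0.0783 CPM in the tumours and at 0 in skin. In K5/K14 tumours 3 of 6 adipocyte and 3 of 4 T cell genes fell and 0 rose, 1 of 5 endothelial genes rose and 1 fell, and 1 of 6 fibroblast, 1 of 6 macrophage and 1 of 6 hair follicle genes fell, where 38.9% of all genes fell. In Ivl tumours 1 of 4 melanocyte genes fell, where 15.5% of all genes fell, and 0 genes of the fibroblast, endothelial, adipocyte, T cell, macrophage, mast cell and hair follicle lists passed by edgeR. In K5/K14 tumours 0 mast cell and 0 melanocyte genes did. Several of these counts changed within the 15 libraries. There 32.7% of all genes fell and 22.2% rose in Ivl tumours, and 42.3% fell and 23.9% rose in K5/K14 tumours. In Ivl tumours 2 fibroblast, 1 endothelial, 2 adipocyte, 1 T cell, 1 macrophage, 1 hair follicle and 3 melanocyte genes then fell, and 1 adipocyte and 2 neutrophil genes rose. In K5/K14 tumours 4 adipocyte, 3 macrophage and 4 melanocyte genes then fell and 3 neutrophil genes rose, while the counts of the endothelial, T cell, fibroblast, mast cell and hair follicle lists did not change.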
